A study of Arabidopsis thaliana with 16 samples.

Results

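The 6 beta carbonic anhydrases of Arabidopsis thaliana were followed in dark grown and light grown suspension cultures. The members were taken by their gene identifiers, and all 6 had a row in the table of 28598 genes. They are beta carbonic anhydrase 1 (CA1, AT3G01500), 2 (CA2, AT5G14740), 3 (BCA3, AT1G23730), 4 (BCA4, AT1G70410), 5 (BCA5, AT4G33580) and 6 (BCA6, AT1G58180). RNA was sequenced from 4 dark grown libraries (Dark-RNA1 to Dark-RNA4) and 4 light grown libraries (Light-RNA1 to Light-RNA4) of a Col-0 cell line with no mutation or transgene named. Dark grown cells were kept for 2 weeks in foil-covered flasks with a subculture every 7 days, and light grown cells were kept under constant light. All cultures grew in the same B5 medium, which supplied sucrose and the auxin analogue 2,4-D. The labels of every library give 16 h, and the study states the same time after passage for its light and dark grown cultures. The sampling protocol also names light grown cells at 5 days after subculture and does not tie that time to a library.

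Carbonic anhydrases interconvert carbon dioxide and bicarbonate. Plants hold 3 unrelated families of the enzyme, named alpha, beta and gamma. In leaves CA1 of the chloroplast stroma and CA2 of the cytosol are the abundant beta forms, and CA1 is also known as a salicylic acid binding protein. BCA3 is a cytosolic form, BCA4 lies at the plasma membrane and in the cytosol, BCA5 is imported into the chloroplast and BCA6 into the mitochondrion. CA1 and BCA4 together are known for their part in the closing of stomata at high carbon dioxide.

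The genes are spread over 4 chromosomes, given here in TAIR10.1 coordinates. CA1 lies on chromosome 3 (194426 to 198664, minus strand), CA2 on chromosome 5 (4757856 to 4762666, plus strand), BCA3 on chromosome 1 (8395466 to 8398387, plus strand), BCA4 on chromosome 1 (26533824 to 26538437, minus strand), BCA5 on chromosome 4 (16138251 to 16141624, plus strand) and BCA6 on chromosome 1 (21537577 to 21540038, minus strand). They have between 2 annotated transcripts (BCA3) and 9 (CA2). The coding sequences of CA1 and CA2 were 81.9% identical and those of BCA3 and BCA4 78.7% identical, against 61.2% to 69.8% for the other 13 pairs. Of these pairs, CA1 and CA2 were both nearly without reads, whereas BCA4 was the most abundant member and BCA3 was nearly without reads. The stretch of coding sequence around the active site shows how far the genes can be told apart by short reads. The capitals mark the codons of the zinc-binding cysteine and of the aspartate and arginine that follow it in every beta carbonic anhydrase, and the 30 bases are printed on the coding strand.
CA1: tttgctTGTtcaGACtcaCGTgtgtgtcca
CA2: tttgctTGTtcgGACtcaCGAgtgtgccca
BCA3: tttgctTGTgcgGATtcaCGAgttagtcca
BCA4: tttgctTGCtctGATtctCGAgtttgtcca
BCA5: attgctTGTgcaGACtctAGAgtttgtcct
BCA6: ataggaTGTgcaGATtcaAGGgtatgtcca

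These windows lie in exons at chr3:196060-196089, chr5:4761172-4761201, chr1:8396974-8397003, chr1:26535363-26535392, chr4:16140366-16140395 and chr1:21538866-21538895. The 3 marked amino acids were the same in all 6 genes, but the codons were not. Counted without gaps, CA2 shared 27 of the 30 bases with CA1, BCA3 and BCA4 24 each, BCA5 23 and BCA6 21. Over the whole of their exons, 0 of the windows of 50 bases (the read length) that were scanned in any of the 6 genes occurred unchanged elsewhere in the nuclear or organelle genomes, so that error-free reads could be placed at 1 gene. Exons of CA1 shared 343 bases with LSF1 on the same strand, those of BCA3 shared 273 bases with AOR on the opposite strand, and those of BCA5 shared 127 bases with AT4G33565 and AT4G33585 together. Reads in these overlaps are uncertain, since the counting mode and the use of strand are not given in the sources used here.

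Library totals were between 29916585 and 32688689 counts in the dark and between 18363149 and 37813411 counts in the light. Levels are given as CPM, counts scaled to 1000000 per library after TMM normalization, and 3 counts in 1 library correspond to 0.0942 to 0.0994 CPM in the dark and 0.0779 to 0.159 CPM in the light. The mesophyll genes LHCB2.1, CAB3 and NPQ4 had summed levels of 0.0636 to 2.47 CPM in dark grown and 94.1 to 186 CPM in light grown libraries. By the test described below 3 of 3 were lower in the dark, against 6.31% of all genes tested. Reads of CAB3 could be shared with its near copies. Of 4 guard cell markers, FAMA, KAT1 and GC1 had at most 2 counts in any library, while MYB60 was tested, at 3.76 ± 2.04 CPM in the dark and 3.16 ± 1.50 CPM in the light (log2 fold change 0.24, adjusted p = 0.815). Of 2 root hair markers, EXPA7 had 0 counts in every library, while COBL9 (listed as SHV2) was tested, at 7.08 ± 2.65 CPM in the dark and 5.13 ± 0.211 CPM in the light (log2 fold change 0.46, adjusted p = 0.342). The trichome marker GL1 had 0 counts in every library, and the phloem marker SUC2 and the epidermal marker ATML1 had at most 18 counts in any. Of 4 genes of dividing cells (SYP111 or KNOLLE, CYCB1;1, CYCA1;1, CDKB2;1), 0 of 4 passed the test described below, against 10.0% of all genes tested. Their log2 fold changes of dark over light were -0.99 to -0.58. Their summed level was 116 to 247 CPM in the dark and 179 to 356 CPM in the light. In such bulk samples, fewer cells of a type and less RNA per cell cannot be told apart.

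Levels of 3 kinds could be seen among the 6 members, and they were the same in both conditions. BCA4 and BCA5 were well expressed, BCA6 was expressed at a low level, and CA1, CA2 and BCA3 were at or close to 0.

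CA1, the main stromal enzyme of leaves, had 5, 1, 3 and 4 counts in Dark-RNA1 to Dark-RNA4, against 2 counts in each of Light-RNA2 to Light-RNA4 and 1 in Light-RNA1. The 13 dark counts correspond to 0.105 CPM (exact Poisson 95% interval 0.0557 to 0.179) and the 7 light counts to 0.0606 CPM (0.0244 to 0.125). These intervals cover counting error only, and they overlap. CA2, the main cytosolic enzyme of leaves, had 1 count in Dark-RNA1 and 0 in the other 3 dark libraries, and 0 counts in all 4 light libraries. Each 0 taken alone allows a level of up to the 3-count limit of its library. Pooled, the 1 dark count corresponds to 0.00805 CPM (exact Poisson 95% interval 0.000204 to 0.0449). The 0 light counts allow up to 0.0319 CPM by the same interval. BCA3, the sequence partner of BCA4, had 1, 0, 1 and 2 counts in the dark and 2, 1, 6 and 0 counts in the light. The 4 dark counts correspond to 0.0322 CPM (0.00878 to 0.0825) and the 9 light counts to 0.0779 CPM (0.0356 to 0.148), and 6 of the 9 light counts came from Light-RNA3.

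CA1, CA2 and BCA3 were thus 3 of the 9469 genes (33.1%) that did not pass the filter on low counts, and they were not tested in the main comparison. Their dark and light libraries overlapped in level in each case. Exact two-sided permutation tests of log2(CPM + 0.5) gave p = 0.343 for CA1, p = 1.0 for CA2 and p = 0.686 for BCA3 (4 libraries against 4, smallest possible p 0.0286). With all genes of at least 1 count kept in the edgeR fit, the adjusted p-values were 0.605, 0.526 and 0.533 in the same order. The 95% intervals of their log2 fold changes in that fit were -0.91 to 2.26, -1.61 to 4.71 and -3.65 to 1.22. A difference between dark and light was not detected for these genes, and only a large one could be seen at this depth.

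**Figure D1:**
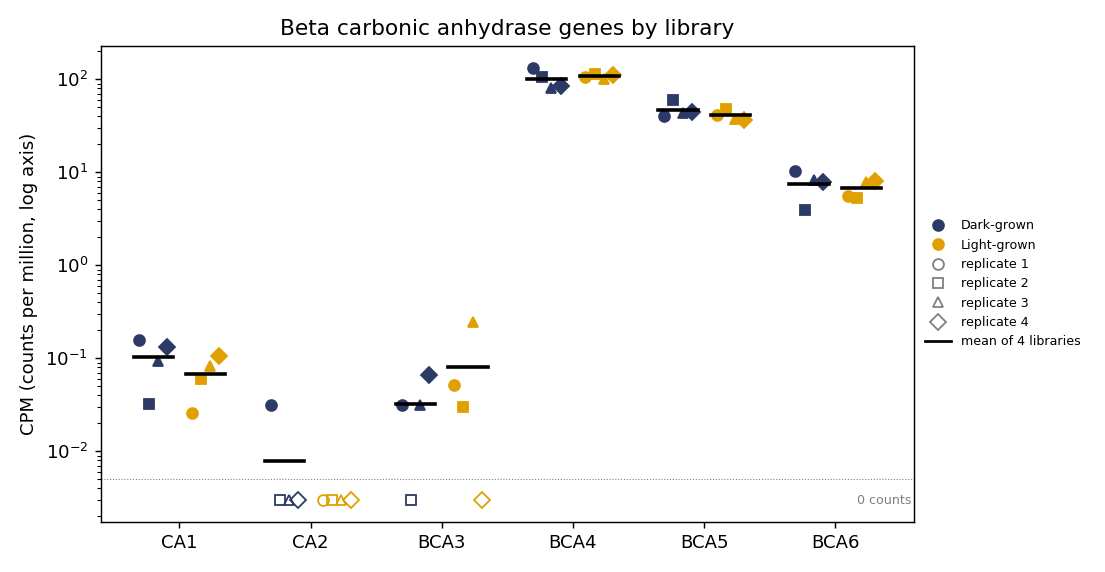
CPM of each beta carbonic anhydrase in every library on a log axis, dark grown libraries left and light grown libraries right of each gene's centre, with a bar at the mean of 4 libraries. Open symbols under the dotted line are libraries with 0 counts. BCA4, BCA5 and BCA6 lie between 3.91 and 134 CPM with the conditions overlapping, and the other 3 genes stay at or under 0.245 CPM.

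BCA4, the plasma membrane and cytosolic form, was the most abundant member. It had 134, 106, 81.4 and 84.5 CPM in Dark-RNA1 to Dark-RNA4, and 105, 113, 101 and 111 CPM in Light-RNA1 to Light-RNA4. The dark libraries lay on both sides of the light ones, with Dark-RNA1 above all of them and Dark-RNA3 and Dark-RNA4 below. The mean was 101 ± 24.1 CPM in the dark and 107 ± 5.43 CPM in the light (SD, n = 4 each), so that the coefficient of variation was 23.8% in the dark and 5.06% in the light. The log2 fold change of dark over light was -0.08 (SE 0.16, 95% interval -0.44 to 0.27), a fold of 0.944 with an interval of 0.739 to 1.21. It did not pass the threshold (edgeR quasi-likelihood test, adjusted p = 0.800, exact permutation p = 0.514). With only Dark-RNA3, Dark-RNA4, Light-RNA2 and Light-RNA3, the libraries that the study pairs with its chromatin samples, BCA4 was lower in the dark by a log2 fold change of -0.37 (adjusted p = 0.0366), whereas the adjusted p over the 8 fits that left out 1 library each was between 0.215 and 0.995.

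BCA5, the second chloroplast form, had 40.2, 60.5, 42.9 and 43.9 CPM in the dark and 41.7, 47.7, 37.3 and 36.4 CPM in the light. Dark-RNA2 was the highest of the 8 libraries, and the other 3 dark libraries lay within the range of the light ones. Its mean was 46.9 ± 9.22 CPM in the dark and 40.8 ± 5.17 CPM in the light (SD, n = 4 each). The log2 fold change was 0.20 (SE 0.15, 95% interval -0.14 to 0.54), which did not pass the threshold (adjusted p = 0.462, exact permutation p = 0.314). Without Dark-RNA2 it was 0.06 (adjusted p = 0.784).

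BCA6, the mitochondrial form, had 10.2, 3.91, 8.20 and 7.89 CPM in the dark and 5.53, 5.32, 7.85 and 8.11 CPM in the light. Here Dark-RNA2 was the lowest and Dark-RNA1 the highest of the 8 libraries. The mean was 7.56 ± 2.65 CPM in the dark and 6.70 ± 1.48 CPM in the light (SD, n = 4 each), with a log2 fold change of 0.18 (SE 0.29, 95% interval -0.49 to 0.84) that did not pass the threshold (adjusted p = 0.767, exact permutation p = 0.771). Single libraries set this value, which was -0.0037 without Dark-RNA1 (adjusted p = 0.996) and 0.40 without Dark-RNA2 (adjusted p = 0.243). Dark-RNA2 and Light-RNA4 are the libraries of their groups that lie nearest to the other condition over all genes. With both left out BCA6 had a log2 fold change of 0.50 (adjusted p = 0.120). Leaving out libraries by this rule widens the contrast of dark and light by itself, so this value adds no support for a difference.

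Hence 0 of the 3 members tested changed between dark and light. Over all 19129 genes tested, 10.0% passed the same test (6.31% with a lower and 3.69% with a higher dark level), and the median log2 fold change was 0.0039. The dark and light libraries did not overlap in 0 of the 3 members, against 16.6% of all genes tested. A p-value above the threshold does not show that the levels were equal, and the intervals leave room for folds of 0.739 to 1.21 for BCA4, 0.907 to 1.46 for BCA5 and 0.713 to 1.79 for BCA6. The cultures are described by the study as replicates, while the growth protocol names duplicates, and the sources do not tie each RNA library to a flask. The p-values measure the spread between these libraries, part of which may be technical.

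The low counts of CA1 and CA2 were found in cells that did carry transcripts of the carbon fixing machinery in the light. Rubisco, which fixes the carbon dioxide that carbonic anhydrase can supply, was represented by its nuclear small subunits (RBCS1A, RBCS1B, RBCS2B, RBCS3B) and by its activase RCA. Of these 5 genes 3 were tested, and 3 of 3 were lower in the dark, against 6.31% of all genes tested. RBCS1A had 4.28 ± 3.31 CPM in the dark and 291 ± 75.6 CPM in the light (SD, n = 4 each), a log2 fold change of -6.09 (SE 0.61, adjusted p = 7.1e-04). RCA had 5.57 ± 1.34 CPM in the dark and 47.3 ± 14.1 CPM in the light, a log2 fold change of -3.09 (SE 0.28, adjusted p = 4.17e-04). RBCS3B had 7, 0, 0 and 1 counts in the dark and 2067, 1988, 1461 and 479 counts in the light. RBCS1B and RBCS2B had at most 19 counts in any library, and the small subunit genes are near copies of each other whose reads the counting could split.

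Between genes, levels were compared per kilobase of exon. RBCS1A stood at 3.38 ± 2.61 CPM per kb in the dark and 229 ± 59.6 CPM per kb in the light. CA1 stood at 0.0320 CPM per kb in the dark and 0.0209 CPM per kb in the light, and CA2 at 0.00257 CPM per kb in the dark and 0 in the light. The chloroplast member BCA5 stood at 29.3 ± 5.75 CPM per kb in the dark and 25.5 ± 3.23 CPM per kb in the light. In the light BCA5 was therefore near RCA (22.5 ± 6.72 CPM per kb), and in the dark it was above RBCS1A and RCA (2.65 ± 0.636 CPM per kb).

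**Figure D2:**
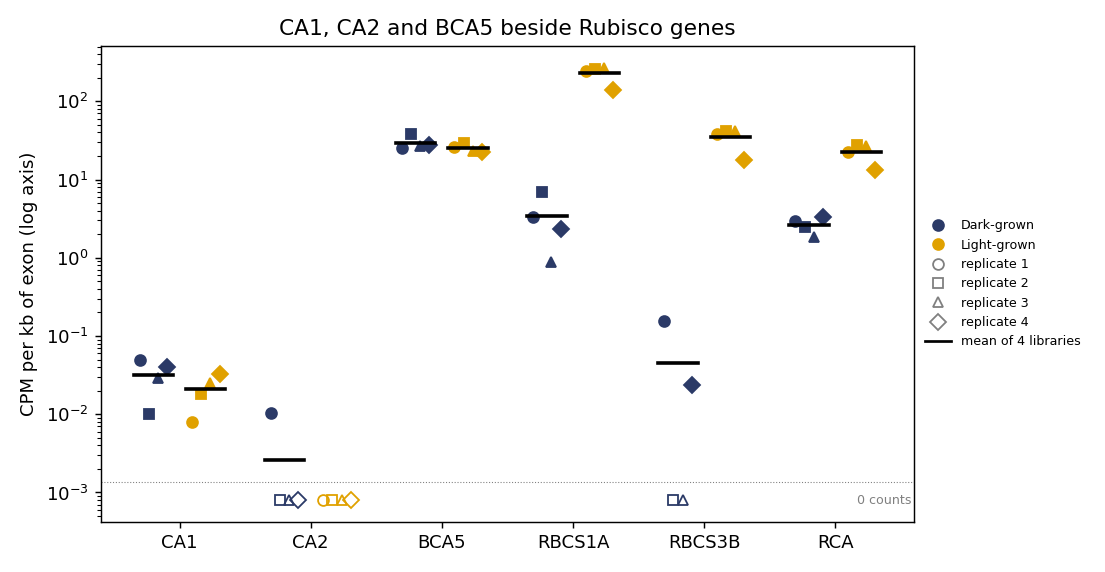
CPM per kb of exon of CA1, CA2 and BCA5 beside the 3 tested Rubisco genes, per library on a log axis, dark grown left and light grown right of each gene's centre, bars at the means. The Rubisco genes are lower in all dark libraries, BCA5 overlaps between conditions, and CA1 stays at or under 0.0487 CPM per kb in both.

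The order of the members by level per kb was BCA4, BCA5 and BCA6, in both conditions. CA1, BCA3 and CA2 followed, with CA1 above BCA3 in the dark (0.0320 and 0.0196 CPM per kb) and below it in the light (0.0209 and 0.0496 CPM per kb), an order that rests on a few counts. BCA4 had 41.7 ± 9.92 CPM per kb in the dark and 44.2 ± 2.24 CPM per kb in the light. The level of BCA4 was above that of BCA5 in 8 of 8 libraries, although their means in the dark lay within about the sum of their standard deviations. BCA6, with 3.82 ± 1.34 CPM per kb in the dark and 3.39 ± 0.749 CPM per kb in the light, was below both in 8 of 8 libraries. Among the 19074 tested genes with a reference length, BCA4 was above 83.2% to 90.0% of genes in the dark and 86.8% to 88.1% in the light. BCA5 was above 77.1% to 84.5% in the dark and 75.3% to 80.8% in the light, and BCA6 above 20.7% to 36.1% in the dark and 23.7% to 30.9% in the light. CA1 was above 0.304% to 1.02% of them in the dark and 0.0419% to 0.393% in the light.

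The summed level of the family was 74.9 ± 11.01 CPM per kb in the dark and 73.1 ± 4.17 CPM per kb in the light (SD, n = 4 each). Of that sum BCA4 made up 64.4%, 52.3%, 52.0% and 52.5% in Dark-RNA1 to Dark-RNA4, and 59.9%, 58.8%, 60.3% and 63.0% in Light-RNA1 to Light-RNA4. BCA5 made up 29.4%, 45.3%, 41.5% and 41.4% in the dark, and 36.2%, 37.7%, 33.7% and 31.3% in the light. In 3 of 4 dark libraries the share of BCA4 was under, and that of BCA5 over, every light library, while Dark-RNA1 lay at the opposite end in both. BCA6 made up 5.22 ± 1.91% in the dark and 4.68 ± 1.20% in the light. Each of CA1, CA2 and BCA3 made up at most 0.216% in any library.

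**Figure D3:**
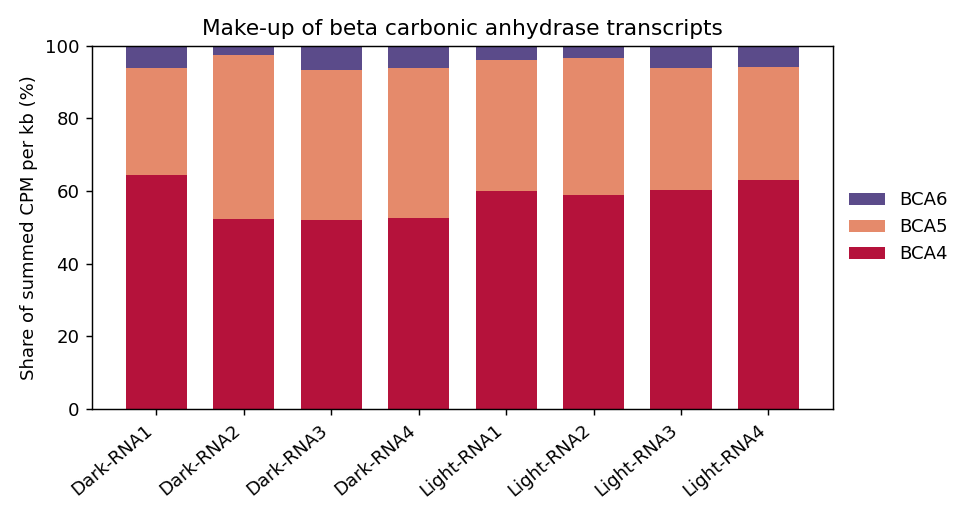
Share of BCA4, BCA5 and BCA6 in the summed CPM per kb of the 6 members, in percent, 1 stacked bar for each library with the dark grown libraries on the left. BCA4 takes 52.0% to 64.4% in the dark and 58.8% to 63.0% in the light, and CA1, CA2 and BCA3 are too small to be seen.

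The members were also compared by their ratio within a library, as log2 of counts with 0.5 added to each. For BCA4, BCA5 and BCA6, with at least 120 counts in every library, the added 0.5 hardly matters and the ratio is free of library scaling. The log2 ratio of BCA5 to BCA4 counts was -1.10 ± 0.42 in the dark and -1.40 ± 0.16 in the light (SD, n = 4 each), a difference of 0.30 (exact two-sided permutation p = 0.2). Without Dark-RNA1 the difference was 0.51 and the groups no longer overlapped (exact permutation p = 0.0286, the smallest that 3 against 4 libraries can give). This ratio was added after the counts had been seen. The ratios of BCA6 to BCA4 and of BCA6 to BCA5 differed by 0.23 (exact permutation p = 0.629) and -0.08 (p = 0.886). The ratios of CA1 to BCA4, BCA5 and BCA6 differed by 0.57, 0.27 and 0.34 (exact permutation p = 0.314, 0.743 and 0.314), values that rest on the 1 to 5 counts of CA1 and so shift with depth. The ratios of CA1 to CA2 and to BCA3 are set largely by the added 0.5, and no comparison was drawn from them. None of these p-values was adjusted over the 8 ratios computed.

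The other families of carbonic anhydrase were measured in the same fit. Of the 8 alpha carbonic anhydrases 2 were tested and 0 of 2 passed the threshold, against 10.0% of all genes tested. ACA2 had 9, 34, 11 and 8 counts in the dark and 79, 156, 49 and 9 counts in the light, and Light-RNA4 fell among the dark libraries. Its log2 fold change was -2.20 (SE 0.72, adjusted p = 0.0974, exact permutation p = 0.0571). It was lower in the dark at -2.93 without Dark-RNA2 (adjusted p = 0.0337) and at -2.53 without Light-RNA4 (adjusted p = 0.0305). ACA1, a glycosylated chloroplast form, had a log2 fold change of -0.87 (SE 0.67, adjusted p = 0.477) at 0.265 ± 0.226 CPM in the dark and 0.479 ± 0.230 CPM in the light. The other 6 alpha genes had at most 18 counts in any library and were not tested in the fit, and ACA6 had 0 in all of them. Among these ACA3 had 4, 3, 5 and 3 counts in the dark and 9, 7, 18 and 5 counts in the light, or 0.120 ± 0.0279 CPM in the dark and 0.361 ± 0.251 CPM in the light, and its groups did not overlap in CPM (exact permutation p = 0.0286, the smallest possible, not adjusted).

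The gamma carbonic anhydrases form a domain of mitochondrial complex I, the first enzyme of the respiratory chain. All 5 were tested and 0 of 5 passed the threshold, against 10.0% of all genes tested. Their log2 fold changes lay between -0.13 and 0.13, with a median of -0.11. GAMMA CA2 had 187 ± 11.2 CPM in the dark and 202 ± 15.7 CPM in the light, and GAMMA CAL2 had 145 ± 15.7 CPM in the dark and 133 ± 5.28 CPM in the light (SD, n = 4 each). In 2 of 5 (GAMMA CA1 and GAMMA CAL1) every dark library was below every light one, against 16.6% of all genes tested whose groups did not overlap in either direction. GAMMA CA1 had 53.2 ± 2.60 CPM in the dark and 58.4 ± 1.36 CPM in the light. GAMMA CAL1 had 47.3 to 60.95 CPM in the dark and 60.96 to 64.0 CPM in the light, so that its groups are separated by the last digit printed. The intervals of BCA4, BCA5 and BCA6 thus lay beside those of the gamma genes around 0, and those of the gamma genes were narrower.

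Carboxylases that take up bicarbonate rather than carbon dioxide are the users of what carbonic anhydrase makes outside photosynthesis. The list held 14 genes, of phosphoenolpyruvate carboxylase (PPC1 to PPC4), acetyl-CoA carboxylase, methylcrotonyl-CoA carboxylase and carbamoyl phosphate synthetase. All 14 were tested and 0 of 14 passed the threshold, against 10.0% of all genes tested. Their log2 fold changes lay between -0.36 and 0.21, with a median of -0.05. PPC1, the most abundant of them, had 658 ± 40.5 CPM in the dark and 693 ± 90.6 CPM in the light. CARB, the large subunit of carbamoyl phosphate synthetase, had 388 ± 42.5 CPM in the dark and 386 ± 15.5 CPM in the light. PPC2, the leaf form of phosphoenolpyruvate carboxylase, had 200 ± 51.7 CPM in the dark and 257 ± 70.3 CPM in the light (log2 fold change -0.36, SE 0.24, adjusted p = 0.410).

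**Figure D4:**
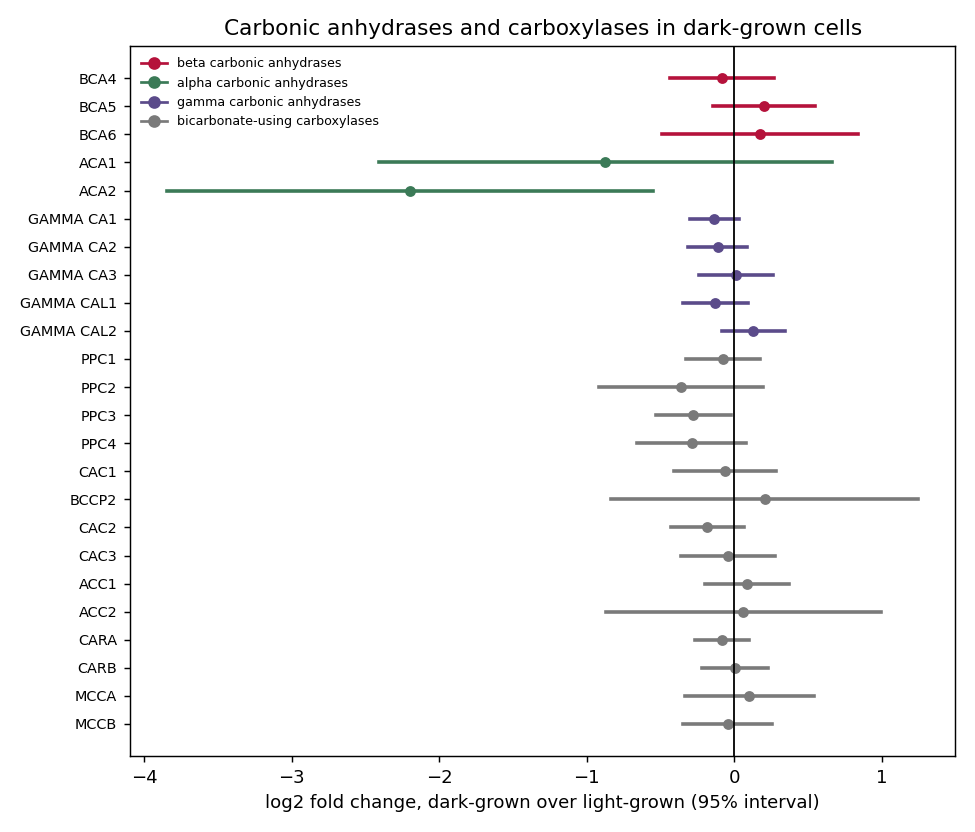
Log2 fold change of dark grown over light grown cultures with 95% intervals for the tested beta, alpha and gamma carbonic anhydrases and the carboxylases that use bicarbonate, 4 libraries in each group. The intervals of BCA4, BCA5 and BCA6 all include 0, and ACA2 at -2.20 lies farthest from it.

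CA1 and BCA4 act upstream of a guard cell pathway for carbon dioxide, and 11 of its genes were listed, of which 7 were tested. PIP2A, an aquaporin that interacts with BCA4, was lower in the dark, with 44.3 ± 8.06 CPM in the dark and 131 ± 48.5 CPM in the light (SD, n = 4 each), a log2 fold change of -1.57 (SE 0.29, adjusted p = 0.0126), and its groups did not overlap. AT3G01490 (CBC1), a protein kinase of the pathway, was higher in the dark by a log2 fold change of 2.26 (SE 0.58, adjusted p = 0.0431). It had 12.5, 1.82, 5.46 and 6.33 CPM in the dark and 2.13, 1.40, 0.654 and 1.22 CPM in the light. Dark-RNA2 lay within the light range (exact permutation p = 0.0571), and the call was lost in 7 of the 8 fits that left out 1 library, all but that without Dark-RNA2, at adjusted p-values of 0.0646 to 0.121. The kinases MPK4 (log2 fold change 0.25, adjusted p = 0.273), OST1 (0.25, adjusted p = 0.492), AT5G50000 (CBC2, -0.04, adjusted p = 0.894) and MPK12 (-0.63, adjusted p = 0.475) did not pass. AT4G22790 (RHC1), a transporter of the pathway, did not pass either (0.81, adjusted p = 0.07003). Its dark libraries (2.41 ± 0.120 CPM) all lay above its light ones (1.37 ± 0.263 CPM, exact permutation p = 0.0286, the smallest possible, not adjusted). Over all genes tested, the groups did not overlap in 16.6%. The kinase HT1 and the peptide EPF2 had 0 counts in every library. AT1G12480 (SLAC1) had 7, 1, 1 and 1 counts in the dark and 3, 4, 4 and 4 counts in the light. AT1G20160 (CRSP) had at most 2 counts in any library, and neither was tested. The guard cell markers FAMA, KAT1 and GC1 were at or near 0, though MYB60 was not.

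The gene on either side of each member gave 12 neighbours, of which 10 were tested, 3 were higher and 1 was lower in the dark, against 3.69% higher and 6.31% lower of all genes tested. The 4 genes that passed flanked CA1, CA2 or BCA3, and 4 of so few genes show nothing particular to these members. CA1 lies 704 bases from the kinase gene AT3G01490 described above, while its other neighbour LSF1, which acts in starch breakdown and overlaps the 5′ end of CA1 on the same strand, had 9.86 ± 1.80 CPM in the dark and 10.1 ± 0.327 CPM in the light (log2 fold change -0.04, adjusted p = 0.909). CA2 lies 111 bases from AT5G14730, which had 13.2, 13.3, 16.0 and 11.4 CPM in the dark and 3.09, 2.23, 1.06 and 1.27 CPM in the light. AT5G14730 was higher in the dark by a log2 fold change of 2.79 (SE 0.33, adjusted p = 0.00138), and its groups did not overlap.

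On its other side CA2 lies 705 bases from MYB66, a transcription factor of root epidermal patterning, which had 1.72, 1.11, 0.659 and 0.464 CPM in the dark and 0.156, 0.149, 0.123 and 0.0530 CPM in the light. MYB66 was higher in the dark by a log2 fold change of 2.94 (SE 0.55, adjusted p = 0.0122), with an adjusted p of 0.0503 without Light-RNA3. BCA3 overlaps AOR, a chloroplast reductase of reactive carbonyls on the opposite strand, by 273 bases. Its other neighbour AT1G23720, at a distance of 3842 bases, was itself nearly silent, with 0, 5, 4 and 1 counts in the dark and 0 counts in all 4 light libraries, and was not tested. AOR had 0.477, 1.60, 0.345 and 0.166 CPM in the dark and 10.6, 11.3, 11.5 and 6.89 CPM in the light, and was lower in the dark by a log2 fold change of -3.96 (SE 0.61, adjusted p = 0.00532). The few counts of BCA3 in the light may hold reads of the overlap, which was not tested. The 6 neighbours of BCA4, BCA5 and BCA6 included no gene that passed the threshold, at log2 fold changes of -0.71 to 0.21 for the 5 that were tested.

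**Figure D5:**
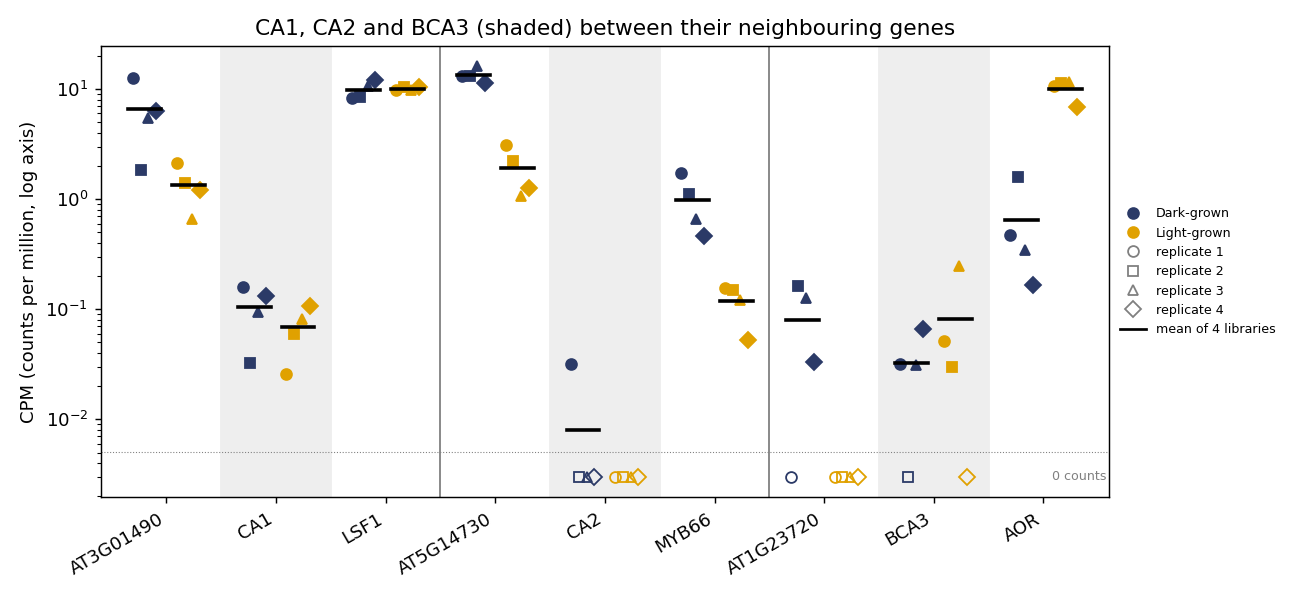
CPM per library on a log axis of CA1, CA2 and BCA3 (shaded) and of the gene on either side of each, dark grown left and light grown right of each gene's centre, bars at the means, open symbols for 0 counts. AT5G14730 and MYB66 beside CA2 are higher and AOR beside BCA3 is lower in the dark, and the 3 shaded genes stay at or under 0.245 CPM.

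The 3 expressed members were not among each other's nearest genes in pattern. Distance was the root mean square difference of log2 CPM over 8 libraries, after removal of each gene's mean. BCA4 and BCA5 lay 0.315 apart, BCA4 and BCA6 0.468 and BCA5 and BCA6 0.606. The median distance to all other tested genes was 0.364 for BCA4, 0.363 for BCA5 and 0.520 for BCA6. BCA4 and BCA5 thus lay closer than the median of either, and BCA5 and BCA6 farther apart. Among 19128 genes, BCA5 ranked 7235 by distance from BCA4, and BCA4 ranked 7729 by distance from BCA5. Genes of small spread lie near each other by this measure, so a distance under the median does not show a like pattern. The distance of BCA4 and BCA6 was above the median of BCA4 and under that of BCA6. The 3 genes nearest to BCA4 were AT2G19160 (0.0456), ACLA-1 (0.0741), a subunit of ATP citrate lyase, and PDE135 (0.0756). ACLA-1 had 97.6 ± 24.96 CPM in the dark and 110 ± 3.18 CPM in the light, with the wide dark and narrow light spread of BCA4. The 3 nearest to BCA5 were UBP26 (0.0671), a ubiquitin protease, AT5G08420 (0.0716) and AT3G52730 (0.0749), and all 3 were highest in Dark-RNA2 as BCA5 was. The 3 nearest to BCA6 were NLP7 (0.0941), a transcription factor of the nitrate response, RMA3 (0.104) and AT3G23605 (0.117). NLP7 had 32.5 ± 12.6 CPM in the dark and 26.7 ± 3.85 CPM in the light. None of these 9 genes passed the threshold between dark and light in the main fit. They were chosen for their likeness to members that did not pass, so this and their shared spread follow from the choice. With the 4 paired libraries ACLA-1 (-0.49, adjusted p = 0.0123) and PDE135 (-0.41, adjusted p = 0.0458) were called lower in the dark. NLP7 was called higher (0.59, adjusted p = 0.0440) without Light-RNA4 and Dark-RNA2.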

How the data were processed

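The authors aligned paired RNA reads of 50 bp to TAIR10 by TopHat2, using Araport11 gene models, and deposited HTSeq counts per gene, not normalized and not pooled. The tools' versions, the counting mode and the strand setting are not given in the sources used here. A second deposited table holds the authors' own edgeR fold changes and p-values and was not used, nor were the 8 MNase-seq samples.

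The comparison was fitted in edgeR 4.0.16 under R 4.3.3 (TMM, filterByExpr with minimum count 10 and minimum total 15, robust quasi-likelihood fit, no covariate), with Benjamini-Hochberg adjustment over the 19129 genes kept and a threshold of 0.05. TMM factors were 0.940 to 1.03. CPM are counts over the TMM-scaled library total. For single genes, log2(CPM + 0.5) was also compared by exact permutation (two-sided), and 3 counts set the floor of a library. The fit was tested on simulated counts with seed 11. Alternatives were other scalings, filters, tests (DESeq2 1.42.0, likelihood ratio), the replicate block and libraries left out. Python 3.11.15, numpy 2.4.6, pandas 2.3.3, scipy 1.17.1, Biopython 1.88 and matplotlib 3.10.9 made tables, sequences and figures.

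Names, coordinates and sequences came from RefSeq TAIR10.1, where 27636 of the 28598 identifiers matched. Coding identity came from global alignments of 1 transcript per gene. Replicate counts differed beyond sampling noise in every pair of a condition, so no library was a repeated sequencing of another. This does not show that each library came from its own culture. The members, gene lists and tests were chosen with earlier results of these data known. Named genes are the 6 members, the called genes of each list (up to 5) and up to 3 uncalled ones of highest level, the neighbours, and the 3 nearest patterns. GAMMA CA1, ACA1 to ACA8, RHC1, MPK12, RBCS1B, RBCS2B, HT1, EPF2, SLAC1, CRSP and the markers are named outside this rule to account for their lists.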

Additional observations from a re-analysis of the deposited data

Results flagged for a closer look

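Single libraries stood apart from the other 3 of their condition in 8 of the 81 groups of 4 libraries searched, where 5% would be 4.05. That share is only a rough guide, since the groups included genes chosen for like patterns and genes of few counts. Among the members it was CA2 in Dark-RNA1 that stood apart, with 0.0318 CPM from 1 count against 0 in the other dark libraries. A group with counts in 1 library only is always flagged by this rule. Of the genes with the nearest pattern to BCA5, UBP26 had 90.3 CPM in Dark-RNA2 against 60.6 to 63.5 CPM, and AT3G52730 had 171 CPM in Dark-RNA2 against 116 to 122 CPM in the other dark libraries. ACA2 had 1.11 CPM in Dark-RNA2 against 0.265 to 0.345 CPM, and AT1G58170 beside BCA6 had 1.14 CPM in Dark-RNA2 against 0.0331 to 0.188 CPM. AT1G70400 beside BCA4 had 3.46 CPM in Dark-RNA1 against 9.18 to 10.04 CPM. RBCS3B had 0.223 CPM in Dark-RNA1 from 7 counts against 0 to 0.0331 CPM. OST1 had 11.1 CPM in Light-RNA2 against 13.0 to 13.1 CPM in the other light libraries. UBP26 and AT3G52730 were named for their likeness to BCA5, which was itself highest in Dark-RNA2.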

How the results depend on the processing

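BCA4, BCA5 and BCA6 did not pass the threshold under any alternative but one, the 4 libraries paired with MNase-seq, where BCA4 was -0.37 (adjusted p = 0.0366). Leaving out 1 library at a time gave log2 fold changes of -0.24 to 0.017 for BCA4, 0.06 to 0.29 for BCA5 and -0.0037 to 0.40 for BCA6, with signs that turned for BCA4 without Dark-RNA3 and for BCA6 without Dark-RNA1. Whether the replicate numbers pair the libraries could not be decided. The correlations of same-numbered deviations were -0.144, 0.582, -0.0248 and 0.219, and those of differently numbered ones ran from -0.557 to 0.388. In the fit with a replicate block BCA4 was -0.11, BCA5 0.19 and BCA6 0.12, and 2221 genes were called. The 1912 calls (1207 lower, 705 higher in the dark) became 3197 with DESeq2 (1421 higher), 4850 without Light-RNA4 and Dark-RNA2 (2431 lower, 2419 higher) and 5387 with the 4 paired libraries (2896 lower, 2491 higher). Light-RNA4 and Dark-RNA2 were left out for lying nearest to the other condition, a choice that raises the calls by itself. Leaving out 1 library gave 962 to 2873 calls, 689 to 1669 lower and 273 to 1204 higher. No scaling moved the median of all genes by over 0.1.

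ACA2 was the alpha gene called lower (1 in place of 0) with the block, DESeq2, the likelihood ratio test, without Light-RNA4 and Dark-RNA2 and with the 4 paired libraries, and in 0 to 1 of the genes without single libraries. Of the 14 carboxylases listed, 1 was called lower without Light-RNA4 and Dark-RNA2, against 2431 of all 19252 genes tested there. With the 4 paired libraries 4 of the 14 were called lower, against 2896 of 19365 genes. Both settings called more genes lower than the main fit, with its 1207 of 19129. Of the 11 guard cell pathway genes listed, 2 were called higher with DESeq2, against 1421 of all 19129 genes tested. The likelihood ratio test also called 2 of them higher, where 2533 of 19129 genes were called in either direction. Without single libraries 0 to 1 of the pathway genes were called higher.

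With 1 library left out the log2 ratio differences were -0.049 to 0.48 for CA1/CA2, 0.61 to 1.84 for CA1/BCA3 (1.84 without Light-RNA4, exact permutation p = 0.0286; both ratios are set largely by the added 0.5), -0.086 to 0.78 for CA1/BCA5, 0.20 to 0.51 for BCA5/BCA4 and -0.32 to 0.34 for BCA6/BCA5, which was 0.49 without Light-RNA4 and Dark-RNA2. By longest transcript the share of BCA4 was 63.4% in the light. Signs turned for genes near 0. CARB was -0.0028 with upper-quartile factors and -0.031 without factors. Without Light-RNA4 and Dark-RNA2 CARB was -0.082, LSF1 0.043, UBP26 -0.070, AT5G08420 -0.078 and AT5G50000 0.067. With the 4 paired libraries CARB was -0.035, LSF1 0.16, UBP26 -0.057, OST1 -0.045 and AT5G08420 -0.026. Without single libraries the ranges were -0.057 to 0.071 for CARB, -0.14 to 0.0066 for PPC1, -0.49 to 1.07 for RLP9, -0.0085 to 0.62 for AT1G70420, -0.22 to 0.0055 for AT2G19160, -0.15 to 0.035 for LSF1, -0.095 to 0.25 for AT3G23605, -0.0011 to 0.21 for UBP26, -0.024 to 0.40 for RMA3, -0.047 to 0.21 for AT4G33565, -0.032 to 0.16 for AT5G08420 and -0.15 to 0.040 for AT5G50000. The cause of these changes was not tested.

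Depth limits CA1, CA2 and BCA3, whose counts of 0 to 6 in a library could show only a large difference, and Light-RNA4, the shallowest library, most of all. Their pooled counts in the light allow at most 0.125, 0.0319 and 0.148 CPM (exact Poisson 95% intervals). With 4 libraries in each condition, changes of BCA4, BCA5 and BCA6 inside their intervals could not be seen.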
